A study of Mus musculus with 2 samples.

Results

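Arg1, Chil3, Retnla, Mrc1, Mgl2, Clec10a and Tgm2 are 7 genes used in mice as readouts of alternative activation of macrophages, and they were followed through the cell classes of an injured retina. All 7 symbols were found among the 31053 genes of the deposited tables, and for each the gene ID there matched the mm10 annotation. The genes were chosen by their function with earlier measured values of these libraries known, among them high Arg1, Chil3 and Retnla counts after MSC-sEV, so the levels below are a description and carry no test. Single-cell RNA was measured in 2 libraries from the retina of C57BL/6 mice aged 6 to 8 weeks, 2 weeks after optic nerve injury. One library came from mice given PBS and the other from mice given MSC-sEV, as the treatments are labelled, and retinas of 6 mice were pooled for each. Cells were enriched on beads for CD45, the surface marker of leukocytes. Because each group was 1 pool, no difference between the libraries has a replicate check, and pool, library and treatment cannot be told apart. Every interval below is an exact 95% interval for counting error only.

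Alternative activation is the state that macrophages take up under interleukin 4 or interleukin 13, which act through the receptor chain Il4ra and the transcription factor Stat6. Arg1 encodes arginase, which turns arginine into ornithine and urea. Chil3 (Ym1) encodes a secreted protein of the chitinase family without chitinase activity, and Retnla (Fizz1) a secreted protein of the resistin family. Mrc1, Mgl2 and Clec10a encode lectin receptors at the cell surface that bind sugars on glycoproteins, and dendritic cells also use them. Tgm2 encodes a transglutaminase, an enzyme that links proteins to each other.

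In mm10, Arg1 lies on the minus strand at chr10:24915221-24927484, Mrc1 on the plus strand at chr2:14229392-14332057 and Tgm2 on the minus strand at chr2:158116402-158146436. The other members have a related gene close by. Chil3 (chr3:106147554-106167564, minus strand) is 33.9 kb from Chil4 (chr3:106201490-106219507, minus strand). Retnla (chr16:48842551-48844461, plus strand) is 28.2 kb from Retnlg (chr16:48872621-48874496, plus strand). Mgl2 (chr11:70130329-70137550) and Clec10a (chr11:70156197-70170834) are 18.6 kb apart on the plus strand. The promoters of both neighbouring pairs are shown because Retnla and Retnlg were counted in overlapping cell classes while Chil4 was nearly absent from the cells with Chil3. Each sequence is the 250 bases before the RefSeq start in GRCm38.p6, 5′ to 3′ on the strand of the gene. Capitals mark matches to TTCNNNGAA or TTCNNNNGAA, the letters that STAT factors bind, and to TATAAAA, the TATA box.
Chil3, chr3:106167565-106167814, minus strand: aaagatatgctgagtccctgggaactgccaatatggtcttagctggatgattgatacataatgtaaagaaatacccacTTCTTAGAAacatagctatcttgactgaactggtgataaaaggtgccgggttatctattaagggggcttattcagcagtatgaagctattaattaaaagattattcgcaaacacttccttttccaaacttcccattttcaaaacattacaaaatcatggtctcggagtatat
Chil4, chr3:106219480-106219729, minus strand: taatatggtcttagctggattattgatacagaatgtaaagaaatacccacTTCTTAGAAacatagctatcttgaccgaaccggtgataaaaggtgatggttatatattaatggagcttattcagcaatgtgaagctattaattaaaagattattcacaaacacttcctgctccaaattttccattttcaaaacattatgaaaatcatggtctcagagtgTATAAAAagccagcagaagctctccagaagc
Retnla, chr16:48842359-48842608, plus strand: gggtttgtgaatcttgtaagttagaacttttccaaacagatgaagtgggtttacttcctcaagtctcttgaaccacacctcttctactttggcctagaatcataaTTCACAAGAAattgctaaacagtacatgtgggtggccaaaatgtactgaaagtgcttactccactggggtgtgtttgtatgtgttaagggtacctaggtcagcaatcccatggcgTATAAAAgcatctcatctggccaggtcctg
Retnlg, chr16:48872358-48872607, plus strand: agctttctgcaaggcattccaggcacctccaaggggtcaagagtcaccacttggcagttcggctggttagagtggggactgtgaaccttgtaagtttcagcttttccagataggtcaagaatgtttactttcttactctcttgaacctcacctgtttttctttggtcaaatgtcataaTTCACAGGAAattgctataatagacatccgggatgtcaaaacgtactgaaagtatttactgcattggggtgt
The Chil3 and Chil4 windows matched at 201 of 223 aligned bases (90.1%), and both hold TTCTTAGAA, starting 172 and 200 bases before the start. The Retnla and Retnlg windows matched at 138 of 178 aligned bases (77.5%). Retnla holds TTCACAAGAA from 145 bases before its start and Retnlg holds TTCACAGGAA from 72 bases before its start. TATAAAA was found in the Retnla window, 30 bases before the start, and in the Chil4 window, 31 bases before it. When aligned, the Chil3 window ends about where the Chil4 match begins, and the Retnlg window ends before the Retnla match. These windows therefore cannot show whether Chil3 and Retnlg have a TATA box at the matching place. Of 32851 mouse promoters of this length, 7.02% hold TTCNNNGAA, 5.85% TTCNNNNGAA and 4.98% TATAAAA on at least 1 strand. Of the other members, Mrc1 and Mgl2 had a RefSeq window, and none of these letters was found there. These matches are a description of the windows, and no binding was measured here.

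Barcodes were kept from 500 UMIs and 300 genes upward if mitochondrial UMIs made no more than 15%, which left 1347 for PBS and 2323 for MSC-sEV. A UMI stands for 1 RNA molecule caught in a droplet. The kept barcodes held 8037219 and 16565276 UMIs, and no barcode was shared by the libraries. After removal of 3 and 4 doublets, the cells had a median of 2596 and 2922 UMIs. The labelled cell type is retinal immune cells, but UMIs of Ptprc, which encodes CD45, were seen in 5.13% of cells after PBS and in 28.4% after MSC-sEV. Leukocyte clusters held 8.26% and 38.0% of cells, and rods, the light-sensing neurons of dim light, were the largest named class in both. Beside microglia, the named leukocyte classes were present in the MSC-sEV library alone. Cells were clustered without the 7 genes, and classes were named "-like" from marker lists. Levels are in CPM, a gene's UMIs scaled to an equal total for every class, and shares of cells are after thinning each cell to 1000 UMIs unless stated otherwise.

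The PBS library held almost none of these transcripts. Only 3 Arg1 UMIs were counted in PBS cells, against 23875 in MSC-sEV cells, a ratio of 3861 per UMI sequenced (1321 to 18725). Chil3 had 0 and 12842 UMIs and Retnla 0 and 9868, which with a floor of 3 counts makes them at least 2077-fold and at least 1596-fold higher in MSC-sEV. Of the 3 PBS Arg1 UMIs, 2 lay in 1 cone-like cell and 1 in a bipolar cell-like cell. The lectin receptors were present in PBS at low counts. Mrc1 had 36 UMIs against 1923 (25.9-fold, 18.7 to 37.1), Mgl2 had 4 against 2007 (243-fold, 94.9 to 894) and Clec10a had 1 against 698 (339-fold, 60.6 to 13395). Tgm2 had 43 UMIs in PBS, 19 of them in endothelial cell-like cells, and 2098 in MSC-sEV (23.7-fold, 17.5 to 32.8). These ratios are over whole libraries that differ in their share of leukocytes, so they mix the number of cells of a type with the RNA per cell.

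**Figure D1:**
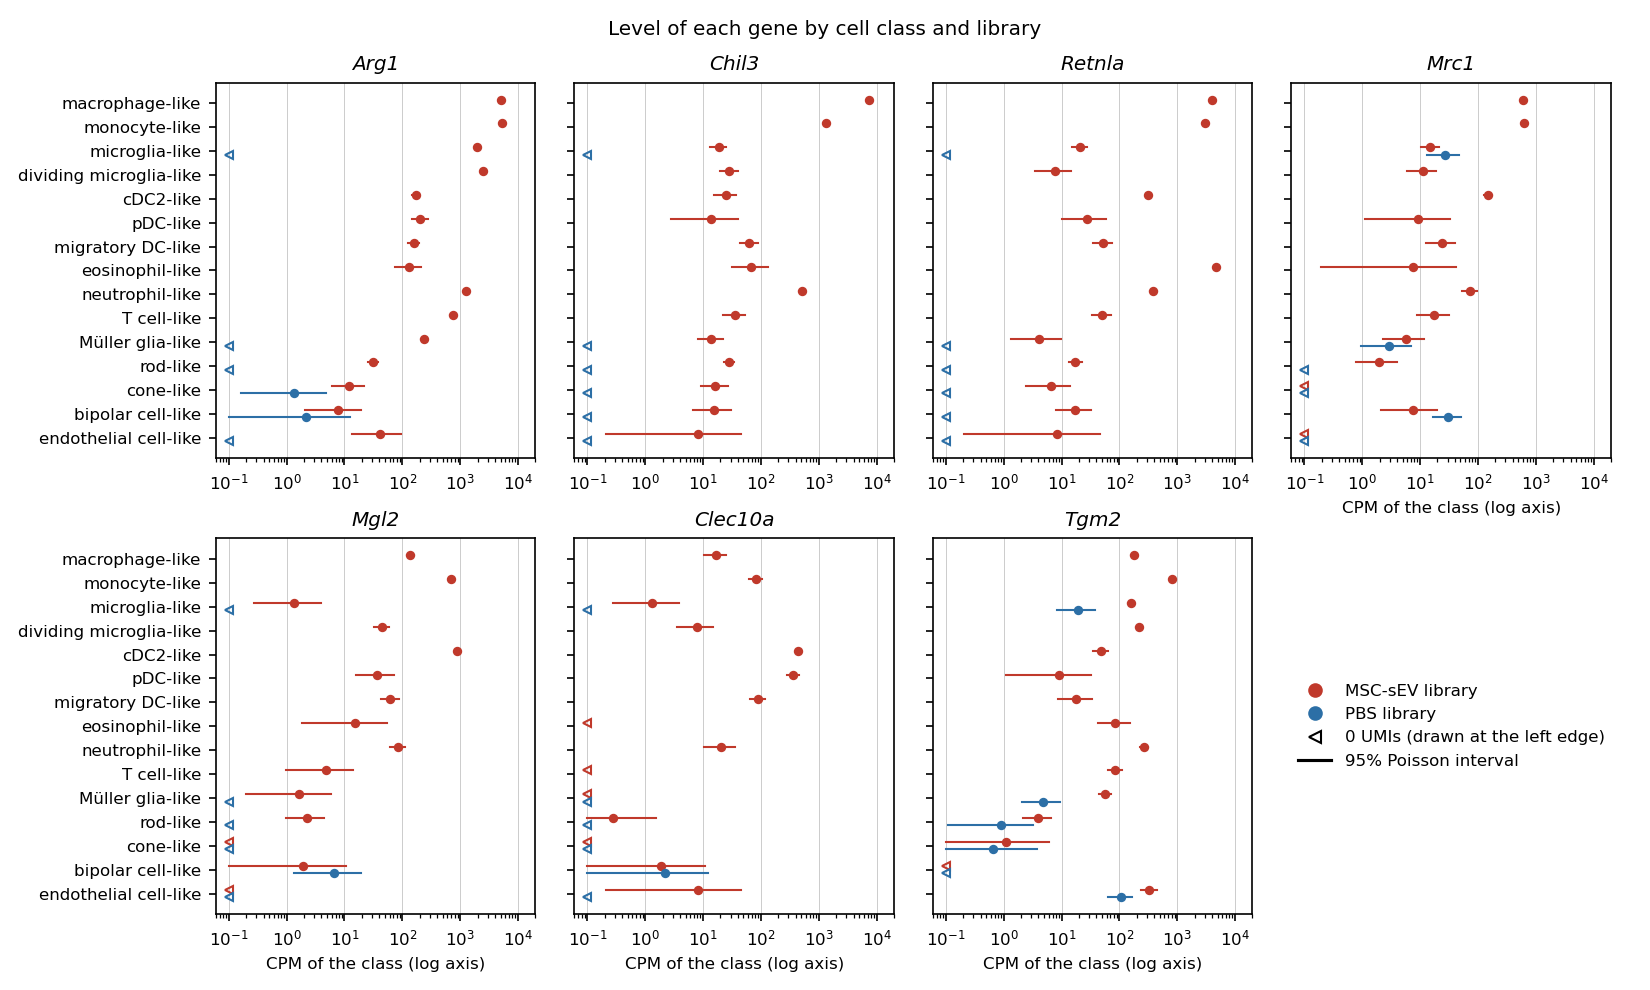
Level of each gene in CPM (log axis) by cell class and library, with exact 95% Poisson intervals. Arg1 reaches 5060 and 5213 CPM in the macrophage-like and monocyte-like cells, Chil3 peaks in macrophage-like cells at 7322 CPM, and Retnla is at 4684 CPM in eosinophil-like cells.

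Arg1 was the member found across most myeloid classes of the MSC-sEV library. It was at 5213 CPM in the 47 classical monocyte-like cells (5059 to 5371) and 5060 CPM in the 61 monocyte-derived macrophage-like cells (4944 to 5177), levels whose intervals overlap. Dividing microglia-like cells followed at 2512 CPM (2422 to 2605, 60 cells), then microglia-like cells at 1964 (1907 to 2023, 219 cells) and neutrophil-like cells at 1274 (1184 to 1368, 96 cells). The intervals of these neighbours do not overlap, but they cover counting error only. Without its highest cell, the level was 4865 CPM in monocyte-like, 4413 in macrophage-like, 2239 in dividing microglia-like and 1786 in microglia-like cells. Each of these values lies outside the interval of its class, so the intervals do not settle the order. Dendritic classes were lower, at 170 CPM in type 2 conventional (145 to 197), 156 in migratory and 205 in plasmacytoid dendritic cell-like cells. Eosinophil-like cells had 130 CPM (75.7 to 208). T cell-like cells had 737 CPM, of which 1 cell held 183 of 461 UMIs, and 482 without it. In PBS, the 40 microglia-like cells had 0 Arg1 UMIs, where 3 UMIs would be 7.26 CPM.

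Detection of Arg1 followed the order of the class levels in part. Of thinned cells, 90.2% of macrophage-like, 78.7% of monocyte-like, 51.8% of microglia-like (44.5 to 59.1) and 48.3% of neutrophil-like cells (37.6 to 59.2) had an Arg1 UMI. The share in rod-like cells, which are not known for the gene, was 3.57% (2.50 to 4.93). Without thinning, the shares were 98.4%, 91.5%, 72.6%, 59.4% and 8.81%, at median depths of 20380, 16799, 5559, 4428 and 2568 UMIs. Thinning left out 28 microglia-like, 7 neutrophil-like and 131 rod-like cells with too few UMIs, and 0 macrophage-like and monocyte-like cells. The median macrophage-like cell held 59 Arg1 UMIs and the median microglia-like cell 3. In microglia-like cells the 10% of cells with the most Arg1 held 67.7% of its UMIs, against 43.9% in macrophage-like and 33.1% in monocyte-like cells. Microglia-like cells ranged from 0 to 476 Arg1 UMIs, and the highest macrophage-like cell held 1219.

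**Figure D2:**
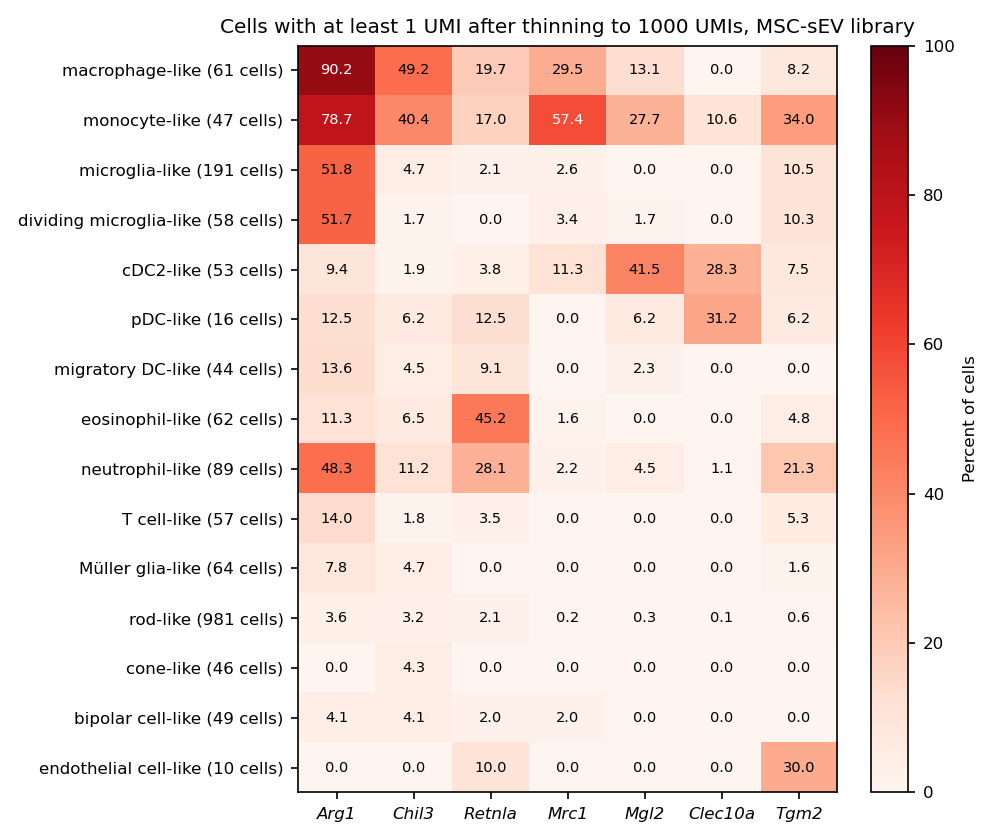
Share of MSC-sEV cells with at least 1 UMI of each gene after thinning to 1000 UMIs, by class, as a heat map with the percentage printed in each tile. Arg1 is found in 90.2% of macrophage-like and 51.8% of microglia-like cells, while Chil3 falls from 49.2% to 4.71% between the same classes.

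Chil3 was concentrated in macrophage-like cells, which held 82.7% of its UMIs in the MSC-sEV library. Its level there was 7322 CPM (7184 to 7463) and its share of cells 49.2% (36.1 to 62.3). Monocyte-like cells were next at 1315 CPM (1238 to 1396) and 40.4% of cells (26.4 to 55.7), then neutrophil-like cells at 512 CPM (456 to 573) and 11.2%. One macrophage-like cell held 3341 Chil3 UMIs, 31.5% of the class, and without it the level was 5196 CPM. One monocyte-like cell held 431, and without it the level there was 830 CPM. The intervals of the shares of cells overlap between these 2 classes, and the median cell held 10 Chil3 UMIs in the first and 3 in the second. Rods had 3.16% of cells thinned and 8.63% unthinned, against 70.5% and 61.7% unthinned in macrophage-like and monocyte-like cells. Eosinophil-like cells had 68.8 CPM (31.4 to 131), and migratory dendritic cell-like cells had 63.4 CPM with 31 of 35 UMIs in 1 cell.

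Microglia-like cells had 18.6 CPM of Chil3 (13.4 to 25.1), below the 28.5 CPM of rod-like cells (23.3 to 34.6). Their share of cells with a UMI was 4.71% (2.18 to 8.76) against 3.16% in rods, at unthinned median depths of 5559 and 2568 UMIs. The thinned share did not separate Chil3 in microglia-like cells from its level in rods. Before thinning, 219 microglia-like cells held 42 Chil3 UMIs and 1112 rod-like cells 102, so microglia-like cells held more per cell. Whether the Chil3 UMIs of microglia-like cells were background of the droplets was not tested. Dividing microglia-like cells had 28.5 CPM, or 10.7 without the cell that held 21 of 33 UMIs.

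Retnla reached high levels in 3 classes that differed in how it was spread over cells. Eosinophil-like cells had 4684 CPM (4321 to 5070), macrophage-like cells 4058 (3955 to 4163) and monocyte-like cells 2971 (2854 to 3091). In macrophage-like cells, the 10% of cells with the most Retnla held 93.2% of its UMIs, and in monocyte-like cells 98.9%. One macrophage-like cell held 2215 of 5885 UMIs and one monocyte-like cell 1001 of 2455, and without them the levels were 2590 and 1839 CPM. In eosinophil-like cells the same share of cells held 59.5% and no cell held more than 52 UMIs. After thinning, Retnla was found in 45.2% of eosinophil-like cells (32.5 to 58.3, of 62 cells), 28.1% of neutrophil-like (19.1 to 38.6), 19.7% of macrophage-like (10.6 to 31.8) and 17.0% of monocyte-like cells. The unthinned shares were 37.9%, 39.6%, 39.3% and 29.8%, and thinning left out 41 of the 103 eosinophil-like cells, whose median depth was 1140 UMIs. The rod-like share was 2.14% thinned and 5.13% unthinned. No order is read between neutrophil-like and macrophage-like cells from these shares, since the Retnla level of neutrophil-like cells was 388 CPM (340 to 442), below that of macrophage-like cells.

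Which class led for Retnla depended on the clustering. In 3 other clusterings the 103 eosinophil-like cells lay in a cluster of 139 or 140 cells that stayed unnamed, with 3076 to 3109 CPM of Retnla, and macrophage-like cells had 3708 to 4947 CPM. In the clustering that used the members themselves, the monocyte-like cluster had 191 CPM of Retnla and shared 32 of its 47 cells. With classes from a marker score per cell, Retnla was at 4874 CPM in eosinophil-like, 1032 in macrophage-like and 16.5 in monocyte-like cells. The type 2 conventional dendritic cell-like level of 319 CPM rested on 1 cell with 235 of 312 UMIs and was 80.2 CPM without it. Microglia-like cells had 20.8 CPM (15.3 to 27.6) and 2.09% of cells, close to the 17.3 CPM (13.3 to 22.2) and 2.14% of rod-like cells. Before thinning, 219 microglia-like cells held 47 Retnla UMIs and 1112 rod-like cells 62, so microglia-like cells held more per cell. Whether the Retnla UMIs of microglia-like cells were background was not tested.

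The granulocyte names rest on a few markers. Eosinophil-like cells had at least 1 UMI of 10 of 12 eosinophil markers, with Epx and Ear2 at 0, but only 5 of 12 met the naming rule. Their summed level for that list was 4256 CPM. Their summed neutrophil list was 19463 CPM with 8 of 12 markers, of which Retnlg alone made 17133 CPM, and Ly6g, Ngp, Camp and Ltf were at 0. Neutrophil-like cells had 6344 CPM of the neutrophil list, with Ly6g and Camp at 0, beside 7556 CPM of the microglia list, for which microglia-like cells had 14717. They also had UMIs of 10 of 12 eosinophil markers, and 5 of 12 met the naming rule there, beside 6 of 12 neutrophil markers. The part of microglial RNA in the Arg1 level of neutrophil-like cells was not tested.

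**Figure D3:**
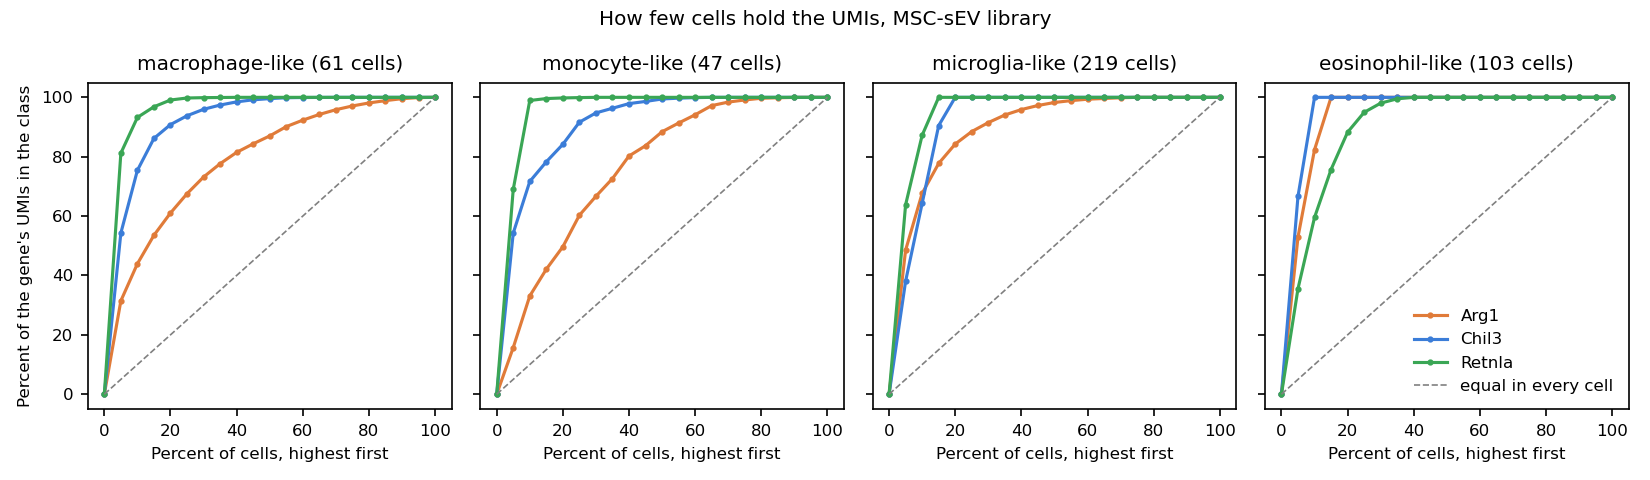
Cumulative share of a gene's UMIs (y axis, percent) held by the cells of a class ranked from most to least UMIs (x axis, percent of cells), MSC-sEV library. The curve of Retnla in macrophage-like cells reaches 93.2% within the first 10% of cells, that of Chil3 75.4% and that of Arg1 43.9%.

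The 3 lectin receptors divided between monocytes, macrophages and dendritic cells. Mrc1 was at 635 CPM in monocyte-like (582 to 692) and 603 CPM in macrophage-like cells (563 to 644), which did not differ beyond counting error. It was found in 57.4% of monocyte-like and 29.5% of macrophage-like thinned cells, and unthinned in 85.1% and 85.2%, against 0.20% thinned and 0.63% unthinned of rods. Type 2 conventional dendritic cell-like cells had 150 CPM (127 to 177) and microglia-like cells 15.0. Mgl2 led in type 2 conventional dendritic cell-like cells at 893 CPM (835 to 954) and 41.5% of cells, above monocyte-like cells at 701 CPM (645 to 760) and 27.7%. Macrophage-like cells had 137 CPM of Mgl2 (119 to 158), and 1 monocyte-like cell held 164 of the 579 UMIs of its class.

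Clec10a was the most dendritic of the 3, with 61.7% of its UMIs in type 2 conventional dendritic cell-like cells, at 440 CPM (400 to 484). Plasmacytoid dendritic cell-like cells, only 16 in number, had 359 CPM (284 to 448), and monocyte-like cells 81.1 CPM (62.8 to 103). Migratory dendritic cell-like cells had 88.8 CPM, 39 of 49 UMIs in 1 cell, and 19.6 CPM without it. Macrophage-like cells had 16.5 CPM and microglia-like cells 1.33. The end of the Clec10a transcript, where reads of this kit fall, shares sequence with Mgl2. Of the 451 windows of 50 bases in the last 500 bases of Clec10a, 92 (20.4%) also occur in the transcripts of Mgl2. The sequence of such a window does not tell Clec10a from Mgl2, and whether reads there were counted or left out was not tested. Of the windows at the end of Mgl2, 19 (4.21%) occur in another gene, H2-Q6. The same holds for 77 windows (17.1%) of Chil3, which also occur in Chil4. None of the windows of Arg1, Retnla, Mrc1, Tgm2 or Retnlg occurs in another gene.

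Tgm2 was highest in monocyte-like cells, at 824 CPM (763 to 888) and 34.0% of cells. It was at 266 CPM in neutrophil-like (226 to 311), 220 in dividing microglia-like, 179 in macrophage-like (158 to 202) and 159 in microglia-like cells (143 to 177), and the last 2 overlap. Endothelial cells are a known site of Tgm2, and 21 endothelial cell-like cells of PBS had 108 CPM (64.8 to 168) and 10 of MSC-sEV had 330 CPM (236 to 449). Microglia-like cells of PBS had 19.4 CPM (8.36 to 38.1), and none of the 40 had a Tgm2 UMI after thinning, against 10.5% in MSC-sEV. Unthinned, 15.0% and 34.2% had one, at median depths of 9151 and 5559 UMIs.

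The near relatives of Chil3 and Retnla had patterns of their own. Chil4 had 5 UMIs in macrophage-like cells and 1 in a monocyte-like cell, and 0 in the other named classes. Chil1 was counted mainly in Müller glia-like cells, the support cells of the retina, at 36.6 CPM after PBS and 400 CPM after MSC-sEV. After MSC-sEV, 2 of 86 cells held 348 of its 486 UMIs, and without the 2 highest cells the levels were 31.0 and 121 CPM. Retnlg, which marks neutrophils in mice, was at 17133 CPM in eosinophil-like and 2020 CPM in neutrophil-like cells. It was at 64.1 CPM in monocyte-like, 18.6 in macrophage-like and 10.6 in microglia-like cells, against 4.20 CPM in rods.

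Taking all 7 genes, the share of cells with several members was highest in monocyte-like cells, while Arg1, Chil3 and Retnla were all found in 8 macrophage-like and 2 monocyte-like cells. After thinning, 61.7% of monocyte-like cells (29 of 47) had at least 3 of the 7 genes, against 32.8% of macrophage-like (20 of 61), 6.74% of neutrophil-like, 5.66% of type 2 conventional dendritic cell-like and 2.09% of microglia-like cells. No rod-like cell had 3, and 90.1% of rods had none of the 7. Of Arg1, Chil3 and Retnla alone, macrophage-like cells had Arg1 alone in 41.0% and Arg1 with Chil3 in 31.1%, and all 3 in 13.1% (8 cells). Monocyte-like cells had Arg1 alone in 38.3%, Arg1 with Chil3 in 29.8% and all 3 in 4.26% (2 cells). Microglia-like cells had Arg1 alone in 49.2% and none of the 3 in 44.5%. Eosinophil-like cells had Retnla alone in 37.1% (23 of 62 cells), and neutrophil-like cells had Arg1 alone in 30.3%, Retnla alone in 14.6% and both without Chil3 in 10.1%.

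**Figure D4:**
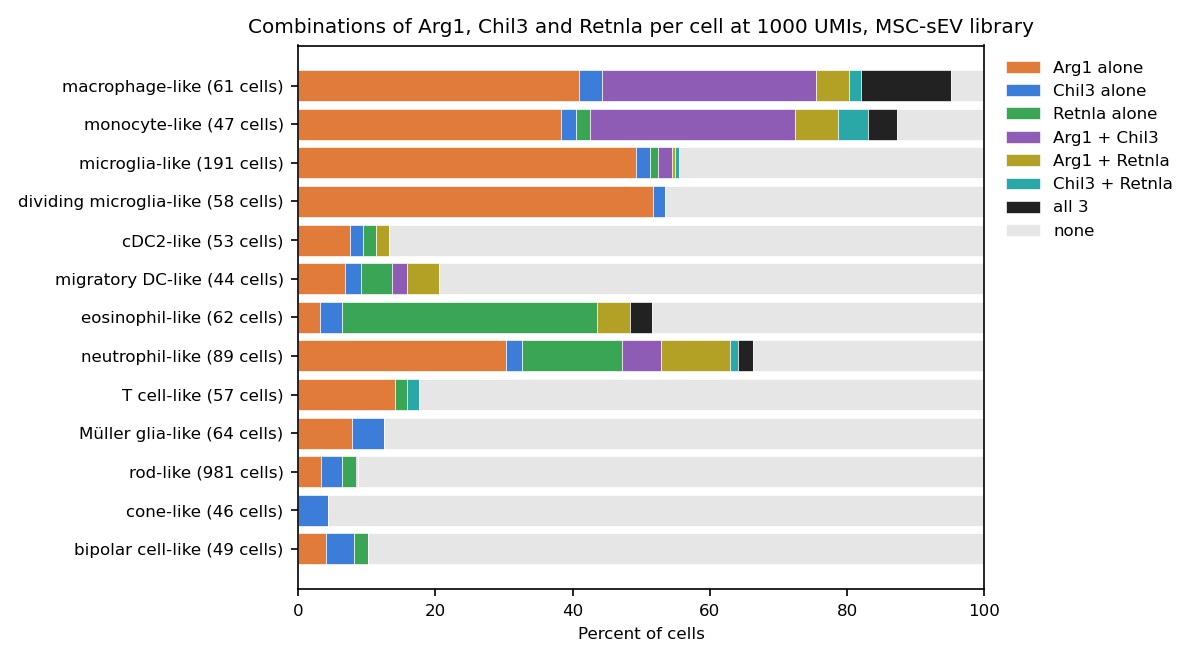
Share of thinned MSC-sEV cells with each combination of Arg1, Chil3 and Retnla UMIs, by class, stacked to 100%. Arg1 with Chil3 takes 31.1% of macrophage-like cells, Arg1 alone 49.2% of microglia-like cells and Retnla alone 37.1% of eosinophil-like cells.

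Within a class, joint detection stayed near the product of the single shares for most pairs. Arg1 and Chil3 were found together in 44.3% of macrophage-like cells (31.5 to 57.6), and the product was 44.3%. Chil3 and Retnla were together in 14.8% (6.98 to 26.2) against a product of 9.67%, which lies inside the interval. Retnla and Mgl2 were together in 8.20% of macrophage-like cells (5 cells, 2.72 to 18.1) against 2.58%, which lies outside the interval. This pair was picked from many, and its product rests on 12 and 8 cells, so no association is read from it. In monocyte-like cells, Arg1 and Chil3 were together in 34.0% (20.9 to 49.3) against 31.8%, and Chil3 and Retnla in 8.51% (2.37 to 20.4) against 6.88%. There Arg1 and Mrc1 were together in 46.8% against 45.2%. In type 2 conventional dendritic cell-like cells, Mgl2 and Clec10a were together in 15.1% (6.75 to 27.6) against 11.7%. In microglia-like cells, Arg1 and Tgm2 were together in 8.90% (5.27 to 13.9) against 5.43%. Cells of a class differ in RNA content and in state, which the product does not take into account.

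Rods, cones, bipolar cells and Müller glia are not known for these genes, and their counts serve as a level for comparison. Whether these counts were background of the droplets was not tested. The rod-like cells of MSC-sEV had 112 Arg1, 102 Chil3 and 62 Retnla UMIs in 1112 cells, at most 4 UMIs of any of these in 1 cell, and the 578 PBS rods had 0 of each. The retinal clusters held Arg1, Chil3 and Retnla in a ratio of 40.3% to 37.3% to 22.4%, without 1 barcode described next, and all cells together in a ratio of 51.3% to 27.6% to 21.2%. Microglia-like cells had 98.0% Arg1 among the 3, monocyte-like cells 54.9% and macrophage-like cells 30.8%, while eosinophil-like cells had 95.9% Retnla. Müller glia-like cells had 238 CPM of Arg1, but 1 barcode of 46487 UMIs held 274 of the 289 UMIs, and without it the level was 12.9 CPM. That barcode had UMIs of 12 of 14 microglia markers and of 11 of 11 Müller glia markers, and also held 52 of the 69 Tgm2 UMIs of its class. It was not marked as a doublet. Of the members with at least 20 UMIs in Müller glia-like cells, Arg1 and Tgm2, 2 of 2 were at least 2-fold higher in MSC-sEV and 0 lower. Of 10287 genes, 9.03% were higher and 4.46% lower. Arg1 had 0 UMIs in PBS Müller glia-like cells and passed the limit through MSC-sEV alone. Without the barcode named above, Arg1 had 15 UMIs, too few to be counted here, and Tgm2 was at 14.6 CPM against 4.72 in PBS, so 1 of 1 was higher. In rods, Arg1, Chil3 and Retnla were 3 of 3 higher and 0 lower, at least 23.4-fold, 21.3-fold and 12.96-fold. Of 9875 genes, 12.9% were higher and 1.05% lower. All 3 had 0 UMIs in PBS rods and passed the limit of 20 UMIs through MSC-sEV alone. With the floor of 3 counts, such a gene always comes out at least 2-fold higher in rods, so this count was fixed in advance.

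Microglia were the leukocytes present in both libraries, and were compared there in the first, coarser clustering, where 111 PBS and 371 MSC-sEV cells allowed a ratio. Of the 6 members with at least 20 UMIs, 4 were at least 2-fold higher in MSC-sEV and 0 at least 2-fold lower. Of 10109 genes, 10.8% were higher and 6.95% lower. Arg1, Chil3, Retnla and Mgl2 had 0 UMIs in PBS and passed this limit through MSC-sEV alone, so they could not have been called lower. Arg1 had 0 and 7481 UMIs and was at least 445-fold higher. Tgm2 had 11 and 522 UMIs (8.47-fold, 4.69 to 17.1). Chil3 (0 and 219 UMIs) was at least 13.02-fold and Retnla (0 and 218) at least 12.96-fold higher. Mrc1 was 1.87-fold higher (13 and 136 UMIs, 1.06 to 3.60), Mgl2 had 0 and 30 UMIs and Clec10a 0 and 18.

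The coarse class did not hold the same cells in both libraries. In PBS, only 40 of its 111 cells were microglia-like in the second, finer clustering of leukocytes, and the other 71 lay in unnamed clusters with 10 of 10 rod markers. The rod list summed to 10385 CPM in PBS and 4580 in MSC-sEV over the coarse class. In MSC-sEV, 51 of its 371 cells were neutrophil-like in the finer clustering, and these held 94 of the 219 Chil3, 156 of the 218 Retnla and 833 of the 900 Retnlg UMIs. Another 4 were macrophage-like and held 50 Chil3 and 39 Mrc1 UMIs. In the finer microglia cluster L1, with 34 PBS and 100 MSC-sEV cells, the microglia list summed to 26037 and 15685 CPM. The macrophage list summed there to 2138 and 3908 CPM and the classical monocyte list to 22.7 and 422 CPM. The latter list holds Fn1, which had no UMI in PBS cells of L1 and is also among the other targets below. The part of both lists in the results of L1 was not tested. There 3 of 5 members were at least 2-fold higher and 1 lower, where 9.46% of 8242 genes were higher and 7.69% lower. Arg1 had 0 and 3645 UMIs and was at least 255-fold higher, and Tgm2 was 7.45-fold higher (8 and 284 UMIs, 3.73 to 17.4). Chil3 (0 and 29 UMIs) was at least 2.03-fold and Retnla (0 and 24 UMIs) at least 1.68-fold higher by the floor of 3 counts. The lower ends of their exact intervals were 1.55 and 1.26, so Chil3 was counted as 2-fold higher by its floor value only. The levels of these last 2 genes in microglia-like cells were near or below those of rods. Mrc1 was lower in L1, at a ratio of 0.496 (0.237 to 1.11; 11 and 26 UMIs), and 9 of the 11 PBS UMIs lay in 1 cell.

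**Figure D5:**
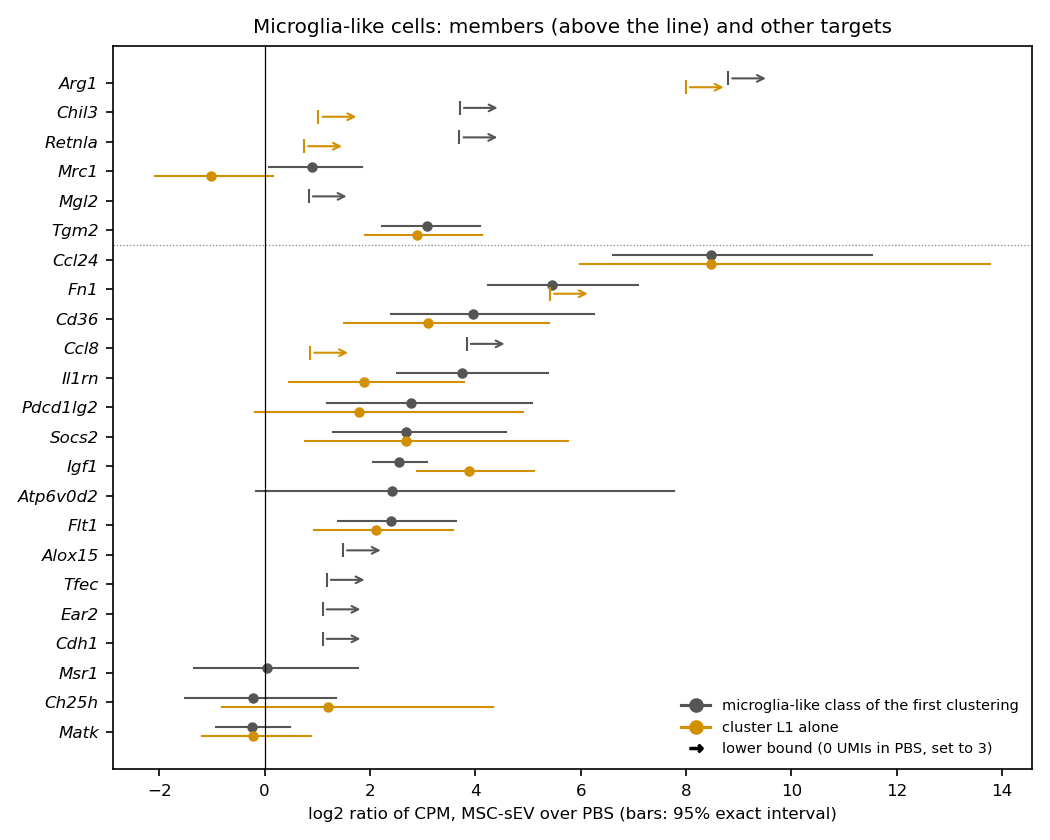
Log2 ratio of MSC-sEV to PBS level in microglia-like cells of the first clustering (grey) and in cluster L1 alone (orange). Shown are the members with at least 20 UMIs and the other targets of alternative activation. Intervals are exact 95% intervals, and a gene with 0 UMIs in PBS is drawn at its lower bound from a floor of 3 counts. As ratios in the first clustering, Arg1 stands at 445, Tgm2 at 8.47, and Ccl24 at 356 (98.5 to 2942).

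The wider pathway was read from lists chosen with earlier results of these data known. In microglia-like cells, 14 of 17 other targets of alternative activation with at least 20 UMIs were at least 2-fold higher in MSC-sEV and 0 were lower. Of all genes, 10.8% were higher and 6.95% lower. The median log2 ratio was 2.42 for these targets, against 0.04 over all genes. In L1 the count was 9 of 11 higher and 0 lower, beside 9.46% and 7.69% of all genes, with a median of 2.10 against -0.02. Ccl24, a chemokine that attracts eosinophils, had 1 and 1692 UMIs in L1, and Fn1, which encodes fibronectin, had 0 and 610. Fn1 is also part of the classical monocyte list summed above. The growth factor gene Igf1 was 14.8-fold higher in L1 (7.45 to 34.4) and Cd36, a lipid receptor, 8.53-fold (2.85 to 41.9).

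Among genes of interleukin 4 and 13 signalling, 4 of 10 were higher in the coarse class and 0 lower, beside 10.8% and 6.95% of all genes. In L1, 2 of 10 were higher and 1 lower, beside 9.46% and 7.69%. Socs1, a feedback inhibitor, was 9.69-fold higher (4.66 to 24.3) and Il4ra 2.77-fold (1.90 to 4.18), and their ratios in L1 were 7.66 and 1.77. Stat6 itself was at a ratio of 0.947 in the coarse class, and Il13ra1 at 0.637 there and 0.482 in L1. Of the regulators, 4 of 10 were higher, and 2 of 9 in L1. Bhlhe40 was 7.10-fold higher in the coarse class, while Cebpb was at 1.40 and Klf4 at 1.22. Of 14 arginine and polyamine genes, 3 were higher and 1 lower in the coarse class, and of 13 in L1, 3 were higher and 1 lower. Ass1, which rebuilds arginine from citrulline, was 8.56-fold higher (2.31 to 71.7), and Oaz1, an inhibitor of polyamine synthesis, was at 1.00. Of 8 genes of classical activation, 4 were higher and 0 lower in the coarse class, with a median log2 ratio of 1.08, and 3 were higher and 0 lower in L1, with a median of 0.14. The coarse class had Il1b at 8.71, Cxcl10 at 31.2 (5.53 to 1240) and Ccl5 at 0.513. Ratios of the coarse class include its neutrophil-like cells and its cells with rod markers described above, whose part was not tested.

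The ligands Il4 and Il13 were counted in few classes, some of which also held members. Il13 had 156 UMIs in T cell-like cells (249 CPM), 61 in the dividing microglia-like cluster and 11 in neutrophil-like cells, and 0 in monocyte-like, macrophage-like and eosinophil-like cells. The T cell-like cluster met 9 of 10 T cell markers, but also 4 of 7 markers of type 2 innate lymphoid cells and 3 of 7 of NK cells. Which cells of that cluster held Il13 was not tested. The dividing cluster also held UMIs of 10 of 10 T cell markers, with a sum of 567 CPM against 2805 CPM in T cell-like cells. Il4 had 17 UMIs in eosinophil-like cells (130 CPM), 14 in T cell-like and 14 in neutrophil-like cells. No cell class of the PBS library had a UMI of Il4 or Il13.

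Within the MSC-sEV library, 3 other myeloid classes were set against microglia-like cells. In macrophage-like cells 6 of 7 members were at least 2-fold higher and 0 lower, where 7.46% of 9251 genes were higher and 12.1% lower. Arg1 was 2.58-fold higher and Tgm2 was at a ratio of 1.13. In monocyte-like cells 7 of 7 were higher, where 10.1% of 8888 genes were higher and 16.2% lower. Tgm2 was 5.18-fold higher there and Arg1 2.65-fold. In type 2 conventional dendritic cell-like cells 4 of 7 were higher and 2 lower, where 10.5% of 9079 genes were higher and 17.2% lower. The 2 lower genes were Arg1 and Tgm2.

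Of 18 other targets, 14 were higher and 1 lower in macrophage-like cells, beside 7.46% and 12.1% of all genes. In monocyte-like cells 15 of 18 were higher and 3 lower, beside 10.1% and 16.2%. Fn1, 1 of these targets, was also among the markers that named the monocyte-like cluster, so its higher level there was set by the naming. Macrophage-like cells had 51.4-fold more Ccl8, 86.5-fold more Ear2 and 161-fold more Atp6v0d2, while Ccl24 was at 1.04. Monocyte-like cells had 5.59-fold more Ccl24, and less Cd36 (ratio 0.0883) and Igf1 (0.354). Slc7a2, an arginine transporter, was 60.6-fold higher in macrophage-like cells (38.1 to 103) and 11.9-fold in monocyte-like cells. Irf4, a regulator of alternative activation, was at 14.8 in macrophage-like (3.57 to 131) and 68.4 in monocyte-like cells (18.0 to 581), with 2 UMIs in microglia-like cells. Stat6 was at 1.16 and 1.20. Lectin receptors were higher in 5 of 5 and 4 of 5 cases. Clec4n of that list was also among the border-associated macrophage markers that the macrophage-like cluster met. Cxcl10, a target of interferon, was at 0.0101 in macrophage-like (0.000253 to 0.0569) and 6.11 in monocyte-like cells.

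Genes with a pattern like that of a member were sought over the 19 clusters of the MSC-sEV library with at least 20 cells, by Pearson's r of log2(CPM + 10) among 8893 genes. The points share 1 library and a wide range of depth, so r is a description. Among those most like Arg1 were Fcgr2b (0.958), Xdh (0.955), Pdgfa (0.949) and Axl (0.947). Those most like Chil3 were Cd93 (0.953), F7 (0.934), Emp1 (0.923), Gm21188 (0.906) and Ms4a7 (0.902). Those most like Retnla were Ccl6 (0.933), Msrb1 (0.930), Gda (0.913), Lilr4b (0.913) and Adam8 (0.908). Ccl6 followed Retnla with 6664 CPM in eosinophil-like, 1627 in macrophage-like and 1488 in monocyte-like cells. Among the members, Arg1 was most like Tgm2 (r = 0.945), Mgl2 most like Clec10a (0.890) and Chil3 most like Mrc1 (0.851), and Arg1 and Retnla were less alike (0.463).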

How the data were processed

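The deposited values are UMI counts, 1 for each gene in each barcode; per the labels' protocols, the authors mapped reads to mm10 and counted with Cell Ranger 3.0.2. The annotation release is not given in the sources used here. The 7 genes, the marker and gene lists and several settings were chosen with earlier results of these data known.

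From the counts, barcodes were filtered as described, and Scrublet was run per library in scanpy 1.11.5 (Python 3.11.15) at an expected rate of 2%. Few calls were made, so doublets remain among the cells. The libraries were joined and clustered on 2000 variable genes, from which the members and listed genes were barred, with 30 principal components and 20 neighbours, by Leiden at resolution 1.0. Leukocyte clusters were then clustered again at 1.5, a value chosen after seeing the data because macrophages and monocytes had formed 1 cluster. A cluster was named when at least 3 markers and 40% of a list were each found in 20% of its cells or more and stood 2-fold or more above other cells, which was also set after seeing the data. Intervals are exact (Poisson, Clopper-Pearson and conditional binomial, scipy 1.17.1), at 95%. Depth limits what was detected, and a library with 0 counts was given a floor of 3 counts over the class, so that "at least" leaves out counting error. Genes of a list were compared from 20 UMIs. Co-detection used classes of at least 40 cells, in place of a planned 50, so that 2 classes of 47 cells entered. No test between libraries was possible. Named genes were the 7 members, the 5 most like each of Arg1, Chil3 and Retnla, and from each list the 4 with the most UMIs or any 4-fold different with at least 50 UMIs. One gene that met this rule is not reported here. Others named in the text, Stat6, Il13ra1, Il4ra, Irf4 and Ass1 among them, were added for their role after their values were seen. Interval and ratio code was tested on simulated data. Promoter windows came from RefSeq (GRCm38.p6), where 4 of 7 members had one, and coordinates from GENCODE M21. Alternatives varied filtering of cells, doublets, clustering, scaling, thinning and thresholds.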

Additional observations from a re-analysis of the deposited data

Results flagged for a closer look

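Transcripts of 5 members were also counted in the 270 MSC-sEV barcodes that failed the cell filter, which were used in no comparison and held 421855 UMIs. Arg1 had 57 UMIs there, Retnla 26, Chil3 22, Tgm2 11 and Mrc1 6. The 329 barcodes of the PBS library that failed held 402521 UMIs, with 0 of Arg1, Chil3, Retnla and Mrc1 and 3 of Tgm2. These UMIs are a small part of the 23932 Arg1, 12864 Chil3 and 9894 Retnla UMIs over all MSC-sEV barcodes.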

How the results depend on the processing

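With 1 library a group, no replicate could be left out. No paired analysis was possible because each group had 1 library. The Arg1 level of microglia-like cells, 1964 CPM, was 2044 at resolution 2.0, 2035 with the members among the variable genes, 1796 as a mean over cells, 2486 without mitochondrial and ribosomal protein UMIs, and 1786 without the cell with the most Arg1. Chil3 in macrophage-like cells (7322 CPM) was 6866 at resolution 2.0, 6468 with the members, 9115 without mitochondrial and ribosomal protein UMIs and 5196 without its highest cell. It was 5027 at resolution 0.5, where monocyte-like cells merged with macrophage-like ones, and 5726 with classes from a marker score per cell. Under the 5 settings named for Arg1, in that order, Retnla in macrophage-like cells (4058 CPM) was 4634, 4947, 3125, 5051 and 2590, with 3708 at resolution 0.5 and 1032 by marker score. Mgl2 in type 2 conventional dendritic cell-like cells (893 CPM), in the same order, was 1043, 1084, 1189, 1162 and 818. A stricter cell filter left 9659 Retnla UMIs. The Arg1 ratio in microglia-like cells, at least 445, was 354 at resolution 0.5, 271 in the microglia-like cells of the second clustering and 255 in L1. The Mrc1 ratio turned from 1.87 to 0.926 by marker score, 0.565 in the second clustering and 0.496 in L1; the cause was not tested. Joint detection of Arg1 and Chil3 (44.3%) was 70.5% without thinning. That of Chil3 and Retnla (14.8%) was 27.9% without thinning and 6.49% by marker score. That of Mgl2 and Clec10a (15.1%) was 5.45% at 500 UMIs, 32.1% at 2000 UMIs and 49.1% without thinning. At a 4-fold threshold, 2 in place of 4 genes of interleukin signalling were higher in microglia-like cells, and 0 in place of 2 in macrophage-like against microglia-like cells. With at least 50 UMIs, 9 in place of 14 other targets were higher in microglia-like cells, since fewer genes were compared. With a pseudocount of 1 in place of 10, 3 of the 5 genes most like Arg1 and 3 of those most like Chil3 were shared. Of all values recomputed, 58 of the principal ones stayed within their error or limit and 38 moved beyond it; of the others 302 stayed, 120 moved and 3 reversed. The second-clustering, L1 and highest-cell settings were added after seeing the data.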
